A study of Zea mays with 6 samples.

Results

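The genes described here were 8 maize genes for 3-ketoacyl-CoA synthases (KCS), AD1 (also ZmKCS19), ZmKCS24, ZmKCS8, ZmKCS26, ZmKCS17, ZmKCS27, ZmKCS18 and ZmKCS15. They were chosen by their gene identifiers, and all 8 were found among the 39283 genes of the expression table. All except AD1 and ZmKCS8 had already been named as changed KCS genes in these same data. Maize has further KCS genes, so the sums and shares below describe these 8 genes and not the whole family. The coleoptile is the sheath around the first leaves of a germinating grass seedling, and RNA of its tips was sequenced in 3 samples labelled fdl1-Mu and 3 samples labelled wild type. All plants were of the W22 inbred background and were grown in a chamber at 28°C, and each sample pooled tips of 3 to 4 mm from several seedlings a few days after germination. The samples labelled fdl1-Mu carry a transposon in the second exon of FDL1, the gene for the MYB transcription factor ZmMYB94, and the labels describe their tips as normal in appearance. In homozygous fdl1-Mu plants the study reports fused seedling leaves, slightly reduced wax crystals and faster water loss. The methods state that homozygous and heterozygous fdl1-Mu plants were collected, without saying to which group the heterozygous plants belonged. The group labelled wild type may therefore hold plants with a copy of the insertion, or the group labelled fdl1-Mu may be mixed, and which of these applies is unknown for every value below. A single insertion allele was used.

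KCS enzymes start each round of fatty acid elongation in the endoplasmic reticulum. They join malonyl-CoA to an acyl-CoA chain, and a reductase (KCR), a dehydratase (HCD) and a second reductase (ECR) then complete the round. The KCS is the rate-limiting enzyme of the complex and sets the length of the chains that it makes. The very long chains are used in the epidermis for cuticular waxes, and elsewhere for suberin, seed oil and membrane lipids. Loss of AD1 fuses leaves, tassel branches and anthers of maize with each other. ZmKCS24 is the closest relative of AD1 in the set, since both belong to the θ subclass of the family.

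The table held 1 FPKM value per gene and group (fragments per kilobase of transcript, relative to the number of mapped fragments), which the authors pooled over the replicates. No spread between replicates stands beside the values below, and none of the differences could be tested. The number of reads behind each value is unknown. Ratios are log2 ratios of the group labelled fdl1-Mu over the group labelled wild type, without a pseudocount. The comparison took in the 21364 genes that reached an FPKM of 1 in at least 1 group and were above 0 in both. All 8 members were among them, but ZmKCS24 passed only through its wild-type value. Of the members, 6 had been named as changed KCS genes in these same libraries, so the size of their ratios describes how they were picked and supports nothing further.

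FDL1 itself (GRMZM2G056407) stood at 12.7 FPKM in the group labelled fdl1-Mu and at 4.58 in the group labelled wild type. The gene with the insertion was therefore not lower in the mutant libraries, and the directions given here rest on the labels. A value for the whole gene leaves unknown which of its transcripts contain the transposon. Summed over all genes, FPKM was 102.2% of the wild-type sum in fdl1-Mu. Over the genes compared, log2 ratios had a median of 0.02. The epidermal genes ocl1 and ocl4, which encode HD-ZIP IV factors of the outer cell layer, had 29.8 and 5.86 FPKM in fdl1-Mu tips and 31.3 and 9.48 in wild-type tips. Of the 2 epidermal markers, ocl4 had a log2 ratio of -0.69 and ocl1 had -0.07. The size for ocl4 was close to those of ZmKCS26, ZmKCS17, ZmKCS27 and ZmKCS18, but not to that of ZmKCS24 (-2.85). The part of the epidermal cells in the KCS values was not tested, since in whole tips fewer cells of a type and less RNA per cell cannot be told apart. Among photosynthetic leaf genes, PEPC1 was near 0 in both groups (0.0603 in fdl1-Mu and 0.0251 in wild type), and me3 was similar in both (4.32 in fdl1-Mu and 4.83 in wild type). The other leaf genes differed by more than 2-fold in opposite directions, with 7.43 FPKM in fdl1-Mu and 16.2 in wild type for Ppdk1 (log2 ratio -1.12), and 4.41 in fdl1-Mu and 1.88 in wild type for ssu1 (log2 ratio 1.23). The part of leaf cells in the KCS values was not tested. The root genes rtcs and rth3 had 0.677 and 9.16 FPKM in fdl1-Mu and 0.390 and 9.47 in wild type, and the cell division genes pcna2 and cyc1 had log2 ratios of -0.40 and -0.30.

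The 8 KCS genes together had a summed FPKM of 109.9 in fdl1-Mu tips and 127.2 in wild-type tips, or 86.4% of the wild-type sum. ZmKCS8 held the largest part of the sum in both groups. Without it, the other 7 genes summed to 56.8 in fdl1-Mu and 73.8 in wild type, 76.9% of the wild-type sum. Of the 8 genes, 7 had a lower value in fdl1-Mu and 1, ZmKCS15, had a higher one, whereas 47.7% of all genes compared were lower. At least a 1.5-fold difference was seen for 4 of the 8, against 17.0% of all genes compared. In the lower direction these were ZmKCS24, ZmKCS27 and ZmKCS17 (5.33% of all genes were lower by this much) and in the higher direction ZmKCS15 (11.7% of all genes). Differences of this size were commoner at low levels, and among the 9457 genes with a mean FPKM from 1 to 10, where these 4 genes lie, 23.9% reached 1.5-fold, 16.0% in the higher and 7.88% in the lower direction. At least a 2-fold difference was seen for ZmKCS24 alone, while 1.31% of all genes were lower by this much. Most members were named because of this contrast, so these shares are given side by side and nothing is read from them. The median log2 ratio of the 8 genes was -0.56.

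**Figure D1:**
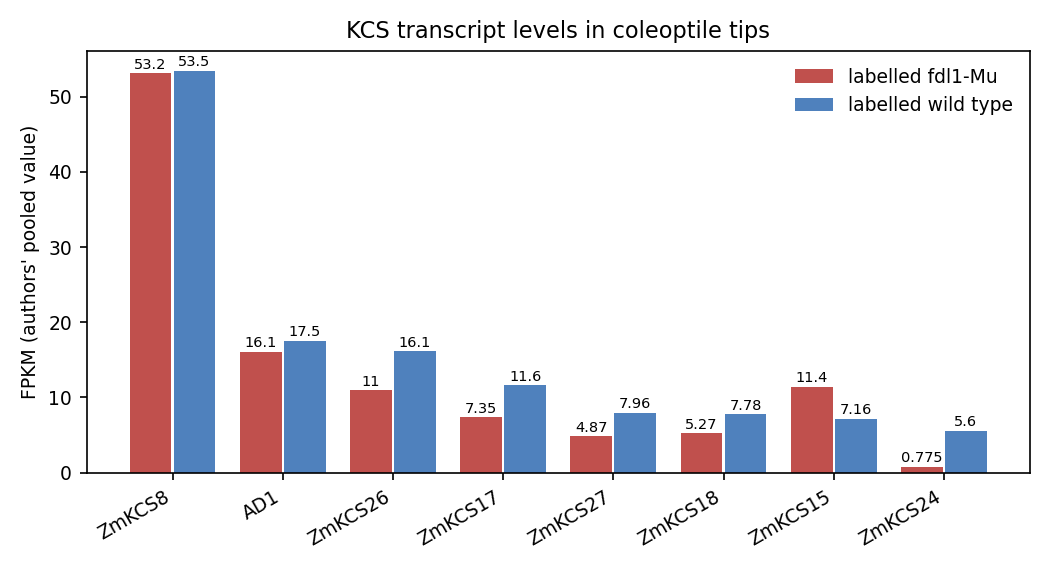
Bars show the authors' pooled FPKM (linear axis from 0) of each KCS gene in the group labelled fdl1-Mu (red, left) and the group labelled wild type (blue, right), 1 value per gene and group with no error bars. ZmKCS8 stands far above the others at 53.2 and 53.5, ZmKCS24 has the shortest red bar at 0.775 against 5.60, and only ZmKCS15 has the taller red bar, 11.4 against 7.16.

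The θ subclass was represented by AD1 and ZmKCS24. The study names further maize genes of this subclass, which were not looked up here, so values for the pair do not describe the subclass. For AD1 (GRMZM2G167438, chromosome 1 of B73v3, 232803345 to 232806998), FPKM was 16.1 in fdl1-Mu and 17.5 in wild type, a log2 ratio of -0.13. The AD1 transcript level in the group labelled fdl1-Mu was therefore 91.7% of that in the group labelled wild type, and 33.4% of all genes compared had a lower ratio. ZmKCS24 (GRMZM2G003138, chromosome 1, 66676747 to 66678709) had 0.775 in fdl1-Mu and 5.60 in wild type, or 13.8% of the wild-type level, with a log2 ratio of -2.85. Of the 21364 genes compared, 26 had a lower ratio than ZmKCS24, and 19 of these 26 were, like it, among the 9457 genes with a mean FPKM from 1 to 10. ZmKCS24 had been named as strongly lower in these libraries and was compared only through its wild-type value. Nothing further is read from this rank of ZmKCS24. Its level in wild type exceeded that of 32.2% of the genes compared. When 1 was added to both values, the difference was 3.72-fold in place of 7.22-fold.

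The ratio between members does not depend on how the groups were scaled to each other. AD1 had 20.7 times the FPKM of ZmKCS24 in fdl1-Mu tips and 3.13 times in wild-type tips. AD1 thus made up 95.4% of the summed FPKM of the pair in fdl1-Mu, and 75.8% in wild type. The sum of the pair was 16.9 in fdl1-Mu and 23.1 in wild type, 72.8% of the wild-type value. Most of that gap was in ZmKCS24, with a difference of -4.82 FPKM (fdl1-Mu minus wild type) beside -1.46 for AD1.

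ZmKCS8 (GRMZM2G162508, chromosome 1, 240842179 to 240846321) was the most abundant of the 8 genes. It had 53.2 FPKM in fdl1-Mu and 53.5 in wild type, a log2 ratio of -0.01. It lay above 88.5% of the genes compared in fdl1-Mu and 88.8% in wild type. AD1 stood at 0.302 of the ZmKCS8 level in fdl1-Mu and at 0.328 in wild type, so that the proportion between the 2 most abundant of these genes was similar in both groups. AD1 and ZmKCS8 had the ratios closest to 0 of the 8 genes, and the other 6 all differed by at least 1.47-fold. Those 6 are the members that had been named as changed in these same libraries. This split therefore follows from how the members were picked.

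ZmKCS26, ZmKCS17, ZmKCS27 and ZmKCS18 had lower values in fdl1-Mu by similar proportions. ZmKCS26 (GRMZM2G075140, chromosome 4, 9744391 to 9747626) is the maize counterpart of Arabidopsis KCS2, or DAISY, which in Arabidopsis acts in suberin formation. The study counts ZmKCS26 among genes related to the cuticle. It had 11.0 FPKM in fdl1-Mu and 16.1 in wild type. Its difference of -5.15 FPKM was the largest of the 8 genes in absolute terms, although its log2 ratio of -0.55 was the smallest of these 4. ZmKCS17 (GRMZM2G168304, chromosome 6, 117635192 to 117637231) had 7.35 in fdl1-Mu and 11.6 in wild type, a log2 ratio of -0.66. ZmKCS27 (GRMZM2G020740, chromosome 7, 141046575 to 141048479) had 4.87 in fdl1-Mu and 7.96 in wild type, a log2 ratio of -0.71. ZmKCS18 (GRMZM2G031790, chromosome 1, 12942595 to 12945812) had 5.27 in fdl1-Mu and 7.78 in wild type, a log2 ratio of -0.56.

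These 4 genes thus stood at 61.2% to 68.1% of their wild-type levels. Ratios at or below theirs were not rare in the table, since 3.16% of all genes compared had a lower ratio than ZmKCS27 and 6.03% a lower ratio than ZmKCS26. These shares depend on level. Among genes with a mean FPKM from 1 to 10, 466 of 9457 had a lower ratio than ZmKCS27. From 10 to 100, 319 of 10242 had a lower ratio than ZmKCS26. ZmKCS26 and ZmKCS18, at 1.47-fold and 1.48-fold, lay just under the 1.5-fold limit, and ZmKCS17, at 1.58-fold, just over it. When both groups were scaled to the same summed FPKM, ZmKCS26 and ZmKCS18 also passed the limit. Together the 4 genes summed to 28.5 FPKM in fdl1-Mu and 43.5 in wild type, a difference of -15.0 FPKM, compared with -4.82 for ZmKCS24. Among these lower genes, the 4 outside the θ subclass therefore held most of the loss in FPKM, while ZmKCS24 had the largest fold difference.

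ZmKCS15 (GRMZM2G160417, chromosome 6, 165362283 to 165364762) was the single member with a higher value in fdl1-Mu. Its closest Arabidopsis homolog is KCS4. It had an FPKM of 11.4 in fdl1-Mu and 7.16 in wild type, a log2 ratio of 0.67, and 9.52% of all genes compared had a higher ratio. The gain of 4.27 FPKM was as large as the loss of ZmKCS17, -4.27 FPKM. ZmKCS15 had 1.04 times the FPKM of ZmKCS26 in fdl1-Mu and 0.444 times in wild type.

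**Figure D2:**
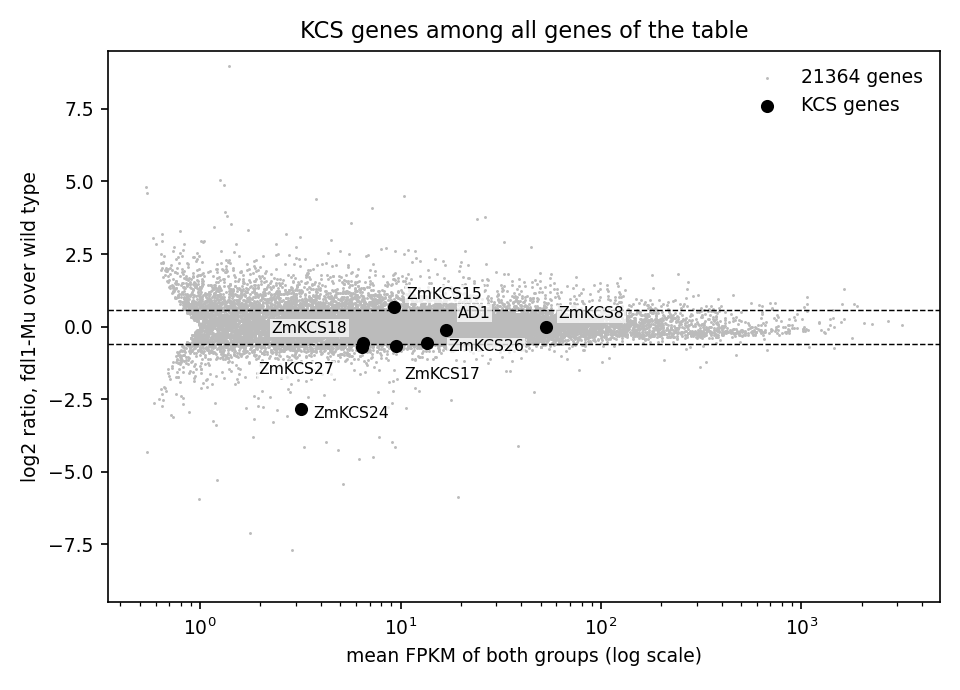
Each grey point is 1 of the 21364 genes compared, with the mean FPKM of both groups (log axis) against the log2 ratio of fdl1-Mu over wild type; black points are the 8 KCS genes and dashed lines mark 1.5-fold. ZmKCS24 lies below the bulk of the genes at -2.85, AD1 and ZmKCS8 lie in their middle, 4 genes sit close to the lower line and ZmKCS15 just above the upper one.

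The order of the levels differed between the groups in its middle part. ZmKCS8 and AD1 held the first and the second place in both groups, and ZmKCS24 the last. ZmKCS15 held place 3 in fdl1-Mu and place 7 in wild type. ZmKCS26 held place 4 in fdl1-Mu and place 3 in wild type, ZmKCS17 place 5 and place 4, and ZmKCS27 place 7 and place 5, while ZmKCS18 held place 6 in both. Without values per replicate it cannot be said which neighbours in this order differ beyond their spread, and ZmKCS15 and ZmKCS26 were close in fdl1-Mu, as were ZmKCS27 and ZmKCS18 in both groups.

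As shares of the summed FPKM of the 8 genes, ZmKCS8 made up 48.4% in fdl1-Mu and 42.0% in wild type. AD1 made up 14.6% in fdl1-Mu and 13.8% in wild type, although its own FPKM was slightly lower in fdl1-Mu. ZmKCS15 made up 10.4% in fdl1-Mu and 5.63% in wild type, and ZmKCS24 made up 0.705% and 4.40%. The shares of the other 4 genes were lower in fdl1-Mu than in wild type, with differences of -1.32 to -2.68 percentage points. ZmKCS26 had 9.99% in fdl1-Mu and 12.7% in wild type, and ZmKCS18 had 4.79% and 6.12%. Shares of a sum are tied to each other, and a gene with an even level gains share when others lose it.

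**Figure D3:**
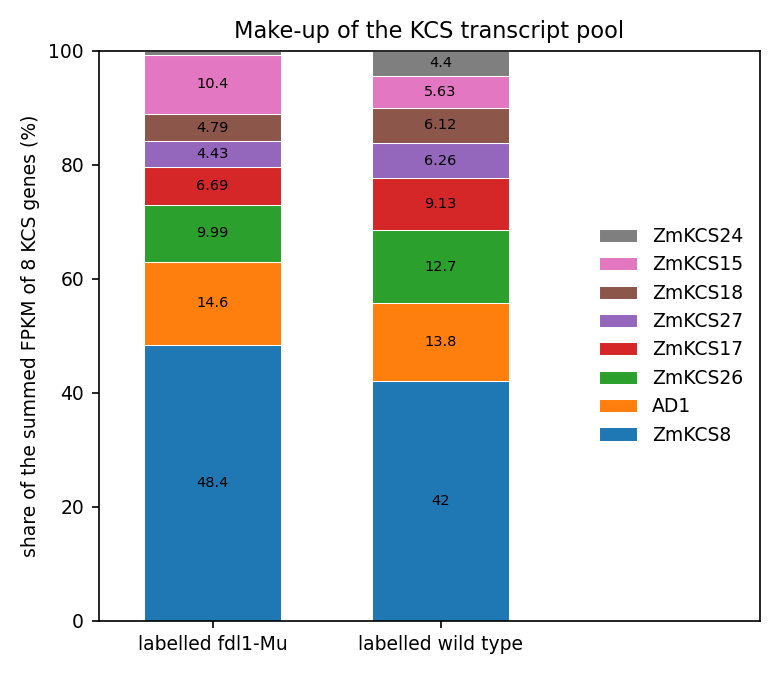
Stacked bars give each gene's share (%) of the summed FPKM of the 8 KCS genes, with the group labelled fdl1-Mu on the left and the group labelled wild type on the right. The ZmKCS8 block takes 48.4% and 42.0%, the AD1 block 14.6% and 13.8%, the ZmKCS15 block 10.4% and 5.63%, and the ZmKCS24 block at the top, 0.705% and 4.40%, is too thin for a label in fdl1-Mu.

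Other genes of the elongation pathway were sought by name, and 5 of 8 names could be matched to a measured gene, of which 4 had an FPKM of at least 1. The names gl8, gl26 and acc2 had no match through their synonyms, so the levels of these genes remain unknown here. No gene for the HCD or ECR step was among those matched. For gl8b (GRMZM2G087323), a maize glossy gene for the KCR reductase, FPKM was 23.9 in fdl1-Mu and 23.8 in wild type. The acetyl-CoA carboxylase gene acc1 (GRMZM5G858094), whose enzyme class makes malonyl-CoA, had 45.4 in fdl1-Mu and 50.6 in wild type. It was found by its symbol alone, and whether its enzyme is the cytosolic form that supplies elongation was not checked. The gene glossy2 (GRMZM2G098239), related to Arabidopsis CER2, which acts with KCS enzymes in the elongation of the longest wax chains, had 90.6 in fdl1-Mu and 76.6 in wild type. These 3 genes had log2 ratios between -0.16 and 0.24. AD1 (-0.13) and ZmKCS8 (-0.01), the members not named as changed, lay in the same range. ZmKCS26, ZmKCS17, ZmKCS27 and ZmKCS18 were lower, but had been named as such in these same libraries, so no contrast with them is drawn. The fourth elongation gene found, ELO1 (GRMZM2G037152), had 28.8 in fdl1-Mu and 15.5 in wild type, a log2 ratio of 0.89. Of the 4 elongation genes it was the only one past 1.5-fold. It had been named as changed in these libraries. The median log2 ratio of the 4 elongation genes was 0.12.

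The elongase names gl4a and fae2 were also looked up. The gene gl4a (GRMZM2G003501), one of the classical maize glossy loci and itself of the KCS type, was hardly expressed, with 0.206 FPKM in fdl1-Mu and 0.270 in wild type. The gene listed as fae2 (GRMZM2G022558), which was added after the table had been examined, had 40.8 in fdl1-Mu and 37.2 in wild type, a log2 ratio of 0.13. It was thus more abundant than AD1 in both groups. With the FPKM of gl4a and fae2 added to the sum, the share of AD1 was 10.7% in fdl1-Mu and 10.6% in wild type, so that the small gap in its share was no longer seen, while ZmKCS24 made up 0.514% and 3.40%.

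The 8 genes lay on chromosomes 1, 4, 6 and 7, and none was the nearest neighbour of another. The locus of none of them overlapped another gene of the table, and their spans ran from 1905 bp for ZmKCS27 to 4143 bp for ZmKCS8. The nearest gene on each side was 1034 to 141162 bp away, and 11 of these 16 neighbours were compared. Of these 11, 0 were lower by 1.5-fold and 3 were higher, beside 5.33% and 11.7% of all genes compared, and with so few genes nothing is read from these counts. Their median log2 ratio was 0.32. The neighbour of ZmKCS24 that was expressed, GRMZM2G113139, had 20.2 FPKM in fdl1-Mu and 23.5 in wild type. Beside ZmKCS27, at 1034 bp, GRMZM2G323912 had 27.0 in fdl1-Mu and 26.8 in wild type. Beside ZmKCS8, whose own level was even, GRMZM2G162505 had 50.9 in fdl1-Mu and 25.0 in wild type, and GRMZM2G124434 had 217.4 and 141.2. Both neighbours of ZmKCS15 were higher in fdl1-Mu, as was the gene itself, with 53.3 FPKM in fdl1-Mu and 35.7 in wild type for GRMZM2G160430, and 34.8 and 21.0 for GRMZM2G141252.

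**Figure D4:**
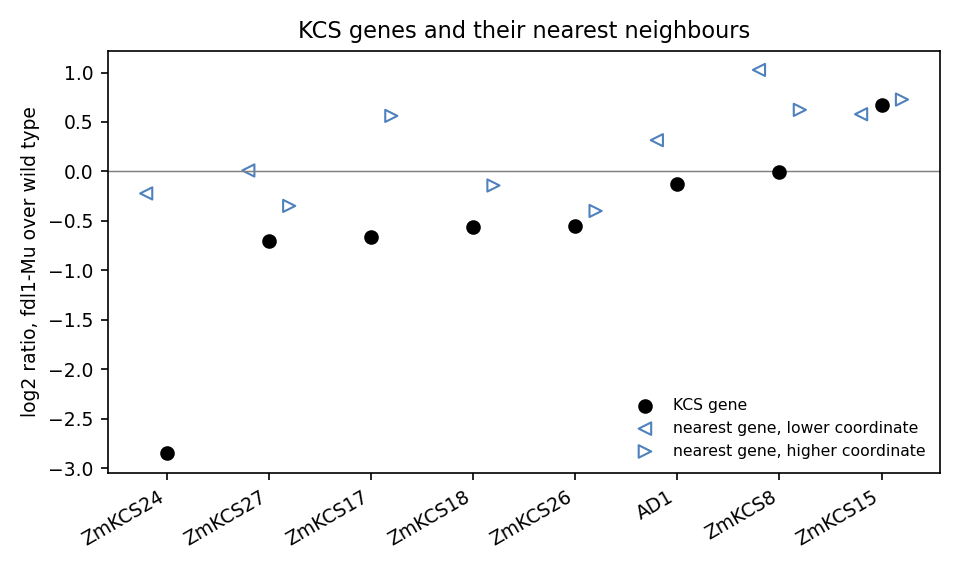
Log2 ratios of fdl1-Mu over wild type for each KCS gene (black points) and for its nearest gene on either side (open triangles), where that gene was compared. The 5 lower KCS genes on the left all lie below their neighbours, whose ratios run from -0.40 to 0.56, whereas ZmKCS15 at 0.67 lies between its neighbours at 0.58 and 0.73. Those 5 genes had been named as lower in these same libraries, so nothing is read from their place below their neighbours.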

How the data were processed

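Per the labels and the methods, stranded mRNA libraries were trimmed with Trimmomatic, mapped to the B73v3 genome with TopHat2 2.1.1 and compared with Cuffdiff. Its version, options and gene annotation are not given in the sources used here, nor is the use of strand in assigning reads. The authors deposited 1 table with an FPKM value per gene and group, already relative to transcript length and library size and pooled over replicates. Plants were W22 and the reference B73 in both groups. Reads of near-identical KCS genes may have been divided between them, which the table does not show.

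The deposited columns of the authors' own comparison (log2 ratio, test statistic, p-value, q-value and call) were not used. With 1 pooled value per group no test was possible, and a 1.5-fold difference was used as a fixed limit of size. Genes at or above an FPKM of 1 in either group were compared, leaving out 18 that were listed at 0 in 1 group. Ratios of 1604 values under 0.1 FPKM in both groups (within 2 on the log2 scale) were searched for steps of whole reads, and at most 3.87% fell in any of 60 bins. Pooling over replicates can blur such steps, so this could not show whether they exist. Depth and counting error are unknown. Locus positions were changed to start counting at 1.

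The members, lists and limits were chosen with earlier results of these data known. Named are all members, FDL1, the elongation genes found by name, the marker genes and the nearest neighbours, which were added after the values were seen. Names came from RefSeq synonyms (assembly Zm-B73-REFERENCE-NAM-5.0; 7 of the 8 members matched) and from the study. A list of further KCS genes by product name was planned but could not be made from that table. Alternatives were a higher and a lower fold limit, an FPKM minimum of 5 or none, pseudocounts of 0.1 and 1, and 3 scalings between groups. The counting code was tested on simulated data. Python 3.11.15, numpy 2.4.6, pandas 2.3.3 and matplotlib 3.10.9 were used.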

Additional observations from a re-analysis of the deposited data

How the results depend on the processing

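No paired analysis was possible because the table holds 1 pooled value per group and no columns for the replicates, for which reason no replicate could be left out either. Of 88 values recomputed for 21 results, 77 stayed within 1.5 times of the value reported and, for ratios, on the same side of the 1.5-fold limit. Of the other 11, 3 ratios passed the limit and 8 values differed by over 1.5 times, and none reversed. Scaling both groups to the same summed FPKM moved every log2 ratio by -0.03 and took ZmKCS26 (-0.59), ZmKCS18 (-0.59) and the median of the 8 genes (-0.59) past the limit, which gave 6 of 8 members past it. With a pseudocount of 1 the log2 ratio of ZmKCS24 was -1.89. With a 2-fold limit, 1 member, 1276 of all genes and 0 of the elongation genes were left, and with the lower fold limit 6 members and 8230 genes. Over all genes, no FPKM minimum gave 7233 genes past 1.5-fold, a minimum of 5 gave 1851 and a pseudocount of 1 gave 2307, in place of 3640. Without ZmKCS24, which was left out after seeing the data, the log2 ratio of the summed FPKM was -0.16 in place of -0.21, and without ZmKCS8 -0.38. The planned counts over further KCS genes were not run, since no list of them could be made.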
